A study of Mus musculus with 16 samples.

Results

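The transcripts of 8 genes for DRG GTPases and ribosome rescue factors were followed in mouse heart: *Drg1*, *Zc3h15*, *Drg2*, *Rwdd1*, *Eif2ak4*, *Pelo*, *Hbs1l* and *Abce1*. They were the 8 of 55487 rows of the gene count table whose Ensembl identifiers map to these symbols, and all 8 passed the filter on low counts, with 18275 genes tested in all. The libraries came from the apex of the heart 4 weeks after transverse aortic constriction (TAC), in which a suture narrows the aorta so that the heart pumps against a higher pressure, or after a sham operation without that suture. Wild-type mice (Ctrl) and mice in which the long noncoding RNA *Cardinal* (Gm12295) was deleted with CRISPR/Cas9 (KO) gave the 4 groups named Ctrl TAC, Ctrl sham, KO TAC and KO sham, each of 4 libraries from differently numbered animals, male as far as the study's methods state. Neither age nor strain was given in the sources used here.

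Ribosomes that stall on a message must be restarted or taken apart, and cells hold several proteins for this work. DRG1 and DRG2 are related GTPases that bind the ribosome, each kept stable by its own partner, DFRP1 (encoded by *Zc3h15*) for DRG1 and DFRP2 (encoded by *Rwdd1*) for DRG2. Pelota (*Pelo*) and the GTPase HBS1L enter the empty decoding site of a stalled ribosome, ABCE1 then splits the ribosome into its subunits, and GCN2 (*Eif2ak4*) is a kinase that senses stalled ribosomes and uncharged tRNA and phosphorylates eIF2α. The study is about *Cardinal* and translation, and the comparisons ask whether the RNA of *Drg1*, its partner and the rescue factors differed with genotype or with pressure load. Protein was not measured in these files.

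*Drg1* and *Drg2* are paralogues, and the stretch of each coding sequence around the GTP-binding loop is shown. This loop is part of the GTP-binding site of both proteins, and the stretch shows how far their sequences have diverged. In GRCm38, the *Drg1* stretch lies at chr11:3262567-3262650 on the minus strand, within exon 3, and the *Drg2* stretch lies at chr11:60456661-60459474 on the plus strand, joined across the intron between exons 2 and 3. Capitals mark the 24 bases that encode the loop, found by its residue pattern in the GENCODE M21 transcripts.
Drg1: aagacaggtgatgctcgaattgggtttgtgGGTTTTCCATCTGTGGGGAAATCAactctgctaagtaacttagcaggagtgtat
Drg2: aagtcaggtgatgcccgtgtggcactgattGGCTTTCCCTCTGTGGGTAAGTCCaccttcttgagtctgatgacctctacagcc
Of the 84 bases shown, 47 were identical, and of the 24 loop bases 19 were. Over the whole coding sequences (1104 and 1095 bases with the stop codon), 63.9% of 1074 aligned bases were identical. The longest identical run between any transcripts of both genes was 17 bases, well short of the 150-base reads.

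By GENCODE M21 on GRCm38, *Drg1* spans chr11:3187360-3266415 (minus strand) and *Drg2* chr11:60454591-60468754 (plus strand), while their partner genes lie apart, *Zc3h15* at chr2:83644435-83664622 (plus strand) and *Rwdd1* at chr10:33996555-34019624 (minus strand). *Eif2ak4* spans chr2:118388618-118475234 (plus strand), *Hbs1l* chr10:21295979-21368898 (plus strand) and *Abce1* chr8:79683462-79711740 (minus strand). For all members, windows of the read length were searched in the transcripts of all other genes. No 150-base window of *Drg2*, *Eif2ak4* or *Abce1* occurred in another gene. For *Drg1* the share was 0.503%, all in *Sfi1*, a neighbour on the same strand, and for *Zc3h15* it was 1.71%, in Gm5909. The share was 19.6% for *Rwdd1* and 25.1% for *Hbs1l*, and the genes concerned (Gm12693 and Gm48045 for the first, Gm9923, 4930455C13Rik and AC126254.1 for the second) each held at most 3.66% as many counts as the member. *Pelo* (chr13:115088355-115090186, minus strand) is a gene of 1 annotated transcript inside an intron of *Itga1*, and 44.2% of its windows also occurred in Gm49395 on the same strand or in the antisense gene Gm10734. Those rows held 3.62% and 10.9% as many counts as *Pelo*. Whether counting used strand was not given in the sources used here, so the values of *Pelo*, *Rwdd1* and *Hbs1l*, whose exons overlap genes on the opposite strand, carry that uncertainty. *Drg1* shares 167 exonic bases with *Sfi1* and *Pelo* shares 739 with Gm49395, each on the same strand, where strand does not separate the genes. How reads in shared bases were assigned was not given either.

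The library totals ran from 53169437 to 79404714 counts, and the members held between 335 (*Eif2ak4*) and 5050 (*Hbs1l*) counts per library. Taking each count as independent, counting error alone was then 1.41% to 5.46% of a member's value. Whether read pairs or single reads were counted was not given, and counting both reads of a pair would make this error larger. *Cardinal* was measured at 3.69, 3.86, 3.24 and 3.38 CPM (counts scaled to a common library total with TMM factors) in Ctrl sham and at 0.553, 0.297, 0.465 and 0.545 CPM in KO sham. It was at 8.02, 2.69, 3.04 and 3.37 CPM in Ctrl TAC and at 0.371, 0.276, 0.368 and 4.55 CPM in KO TAC. The library labelled KO TAC 4 thus had *Cardinal* at the level of the Ctrl libraries, against its label. For the members, calls of the main test that rest on KO TAC are therefore given without it as well. Single calls of other genes are given with it alone.

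Per kilobase of exon and averaged over the 16 libraries, *Rwdd1* had the highest level, 30.1 ± 1.90 CPM per kb (SD, n = 16), followed by *Zc3h15* at 17.7 ± 1.23. *Hbs1l* (10.5 ± 0.613), *Drg1* (9.83 ± 0.528), *Abce1* (8.92 ± 0.650), *Pelo* (7.24 ± 0.891) and *Drg2* (6.22 ± 0.340) came next, and each neighbouring pair in that order had overlapping ranges over libraries. *Eif2ak4* was lowest, at 0.997 ± 0.0860. Both DRG partners therefore stood above the GTPase they bind on this scale, and *Drg1* above *Drg2* with no overlap between their ranges (8.87 to 10.8 against 5.59 to 7.01 CPM per kb). Transcript use within each gene was not resolved, so these lengths count all annotated exons. They exceed the transcript with the longest coding sequence unevenly, at 3460 against 1546 bases for *Drg1* and 2789 against 2111 for *Zc3h15*. For *Hbs1l* it was 6051 against 2733 bases, and for *Pelo* both were 1600. The order and the gaps above therefore depend on the lengths taken.

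**Figure D1:**
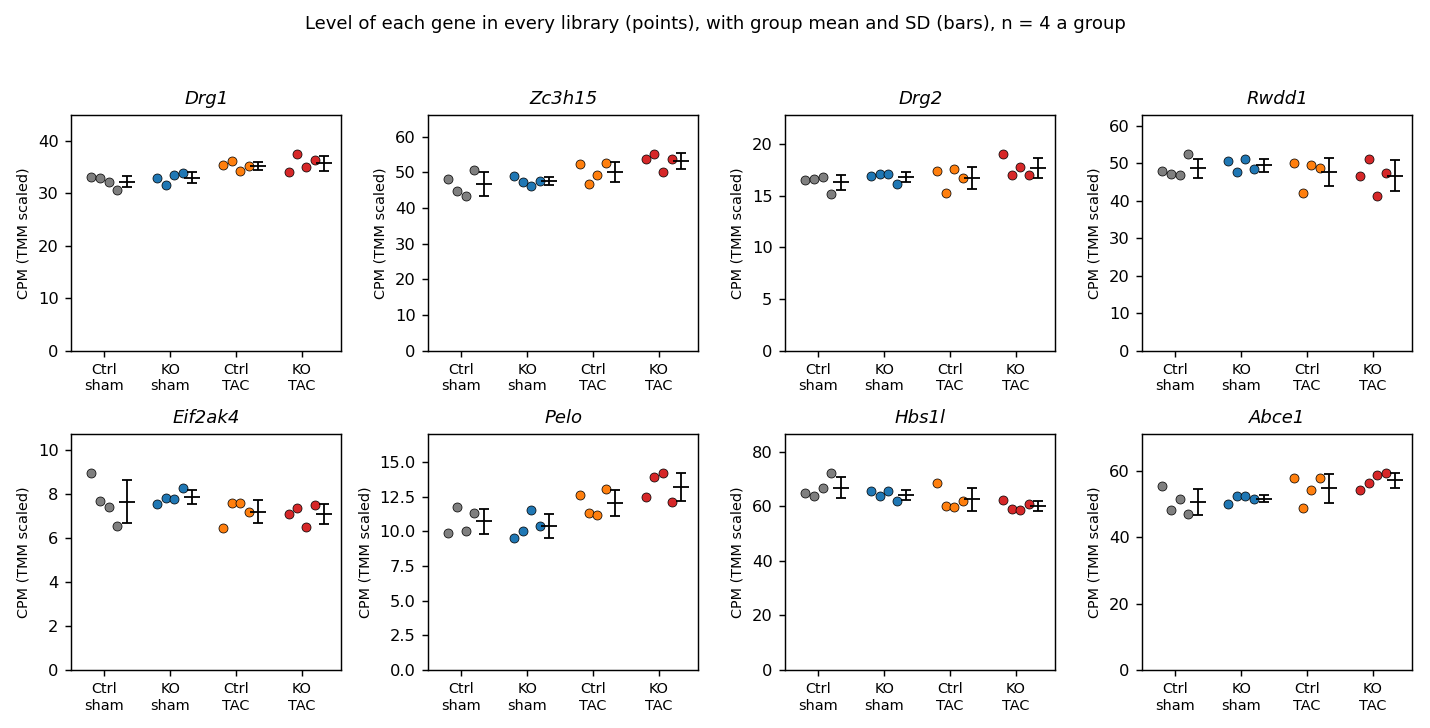
CPM of each of the 8 genes on the vertical axis, starting at 0, for the 4 libraries of each group (points), with the group mean and SD beside them. For *Drg1*, all 8 TAC libraries lie at or above 34.1 CPM and all 8 sham libraries at or below 33.9 CPM, while for *Drg2*, *Rwdd1* and *Eif2ak4* the TAC and sham libraries overlap.

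*Drg1* was higher after TAC in a narrow but complete separation of the libraries. It was measured at 33.1, 32.9, 32.1 and 30.7 CPM in Ctrl sham and at 32.98, 31.5, 33.4 and 33.9 CPM in KO sham. It was at 35.3, 36.2, 34.2 and 35.1 CPM in Ctrl TAC and at 34.1, 37.4, 34.9 and 36.3 CPM in KO TAC. Every TAC library was above every sham library, a separation upward that 6.12% of the genes tested showed. The closest libraries, KO sham 4 and KO TAC 1, lay within counting error of each other (95% counting intervals 32.4 to 35.5 and 32.7 to 35.5 CPM). Averaged over genotypes, *Drg1* rose by 8.83% (95% interval 3.88% to 14.0%), a log2 fold change of 0.12 with a standard error of 0.03 (adjusted p = 0.00485, edgeR quasi-likelihood test, Benjamini-Hochberg adjustment over all genes tested). That is a small change for this surgery: 64.4% of the genes tested had a larger absolute one, and the median over all genes was 0.19 on the log2 scale. Within genotypes, the log2 fold change was 0.13 in Ctrl (adjusted p = 0.0495) and 0.11 in KO (adjusted p = 0.0598), so *Drg1* passed the threshold of 0.05 in Ctrl alone, and the test of the difference between genotypes gave -0.02 (95% interval -0.15 to 0.12, adjusted p = 0.953).

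The averaged rise of *Drg1* was called in all 16 fits that left out 1 library, and without KO TAC 4 it was 0.12 (adjusted p = 0.0102). The Ctrl call was lost in 15 of those 16 fits, while its log2 fold change ran from 0.11 to 0.14 over all 16, and DESeq2's Wald test placed *Drg1* past the threshold in Ctrl (adjusted p = 0.0333) and in KO (adjusted p = 0.0493). The animal numbers in the labels also run with surgery, since all animals whose numbers begin with 33 were sham and all whose numbers begin with 25 were TAC. They were uneven between genotypes too. Those beginning with 33 were KO sham 1, 2 and 3 and Ctrl sham 4, and those beginning with 25 were Ctrl TAC 2, 3 and 4 and KO TAC 4. The labels do not say what the numbers mark. With the numbers beginning with 33 as a term, the averaged *Drg1* change was 0.09 (adjusted p = 0.110), and with those beginning with 25 it was 0.12 (adjusted p = 0.0436).

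*Zc3h15*, which encodes DFRP1, the zinc-finger partner that protects DRG1 from degradation, was also higher after TAC. It was at 48.2, 44.7, 43.3 and 50.7 CPM in Ctrl sham and at 48.9, 47.3, 46.3 and 47.7 CPM in KO sham. It was at 52.3, 46.7, 49.3 and 52.8 CPM in Ctrl TAC and at 53.7, 55.2, 50.04 and 53.8 CPM in KO TAC. The sham and TAC libraries overlapped in Ctrl and were separate in KO. Averaged over genotypes, *Zc3h15* rose by 9.66% (95% interval 3.62% to 16.1%, log2 0.13 ± 0.04 SE, adjusted p = 0.0103), and this call held in all 16 fits without 1 library and with either set of animal numbers as a term (adjusted p = 0.0120 and 0.0347). In KO the log2 fold change was 0.16 (adjusted p = 0.0303), a call that held in 10 of the 16 fits without 1 library and was lost without KO TAC 4 (0.15, adjusted p = 0.0659). In Ctrl it was 0.11 (95% interval -0.01 to 0.22, adjusted p = 0.200).

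The second GTPase pair did not pass the test in any comparison. *Drg2* ranged from 15.2 to 17.1 CPM over the 8 sham libraries and from 15.3 to 19.1 CPM over the 8 TAC libraries, with an averaged log2 fold change of 0.06 (95% interval -0.03 to 0.15, adjusted p = 0.296). *Rwdd1*, the partner of DRG2, ranged from 46.9 to 52.5 CPM in sham and from 41.3 to 51.3 CPM in TAC, with -0.06 (95% interval -0.15 to 0.04, adjusted p = 0.358). The *Drg2* interval holds rises of up to 10.7%, so a rise of the size called for *Drg1* and *Zc3h15* lies within it. The *Rwdd1* interval runs from a fall of 10.2% to a rise of 2.91%, so it holds a fall of that size but not a rise. Scaling by library totals in place of TMM factors turned the sign for *Rwdd1* (0.08, adjusted p = 0.191) and brought *Drg2* past the threshold (0.19, adjusted p = 0.00166), in a setting that moved the median of all genes by 0.13.

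Of the rescue factors, *Pelo* changed most. Pelota recognises the empty decoding site of a stalled ribosome and takes the place that a release factor holds in normal termination. It was at 9.88, 11.7, 10.01 and 11.3 CPM in Ctrl sham and at 9.53, 10.02, 11.6 and 10.4 CPM in KO sham. It was at 12.7, 11.3, 11.2 and 13.0 CPM in Ctrl TAC and at 12.5, 13.9, 14.2 and 12.1 CPM in KO TAC. All 4 KO TAC libraries were above all 8 sham libraries, and in Ctrl the groups overlapped. Averaged over genotypes, *Pelo* rose by 19.5% (95% interval 9.65% to 30.2%, log2 0.26 ± 0.06 SE, adjusted p = 0.00179).

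In KO, *Pelo* rose by 26.97% (log2 0.34, 95% interval 0.17 to 0.52, adjusted p = 0.00342), and without KO TAC 4 the value was 0.38 (adjusted p = 0.00329). In Ctrl the log2 fold change was 0.17 (95% interval -0.01 to 0.34, adjusted p = 0.173). These do not show a difference between genotypes: the interaction was 0.18 with an interval of -0.07 to 0.42 (adjusted p = 0.612). The KO and averaged calls held in all 16 fits without 1 library and in every other alternative tried (11 for KO and 10 for the average), the animal-number terms included. Of the genes that share its position, the host gene *Itga1* had -0.03 (adjusted p = 0.669), the antisense Gm10734 had 0.12 (adjusted p = 0.470) and Gm49395 had 0.40 at 0.226 to 0.780 CPM (adjusted p = 0.1001).

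*Hbs1l* and *Abce1*, which act with Pelota, did not share one direction. *Abce1*, the ATPase that splits the ribosome after termination or rescue, was at 55.6, 48.1, 51.6 and 46.9 CPM in Ctrl sham and 50.2, 52.5, 52.4 and 51.6 CPM in KO sham. It was at 58.0, 48.8, 54.4 and 57.8 CPM in Ctrl TAC and 54.4, 56.3, 58.8 and 59.3 CPM in KO TAC, so the KO TAC libraries were all above the KO sham libraries. Averaged over genotypes it rose by 9.45% (95% interval 2.84% to 16.5%, log2 0.13, adjusted p = 0.0204), and by 0.12 on the log2 scale without KO TAC 4 (adjusted p = 0.0430). The call was lost with either set of animal numbers as a term (0.10, adjusted p = 0.203, and 0.14, adjusted p = 0.0628). Within genotypes it was 0.11 in Ctrl (adjusted p = 0.209) and 0.15 in KO (adjusted p = 0.0702, and 0.161 without KO TAC 4), neither past the threshold.

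*Hbs1l*, the GTPase that delivers Pelota to the ribosome, was at 64.7, 63.7, 66.8 and 72.1 CPM in Ctrl sham and 65.5, 63.6, 65.5 and 61.9 CPM in KO sham. It was at 68.7, 59.9, 59.8 and 61.8 CPM in Ctrl TAC and 62.3, 59.0, 58.5 and 60.9 CPM in KO TAC. Of the 8 TAC libraries, 6 lay below every sham library, and Ctrl TAC 1 and KO TAC 1 lay among them. The averaged log2 fold change was -0.09 (95% interval -0.17 to -0.02, adjusted p = 0.0508), just short of the threshold, and it turned to 0.04 when library totals replaced TMM factors (adjusted p = 0.463). DESeq2's Wald test gave -0.10 with an adjusted p of 0.0366, and without KO TAC 4 the value was -0.10 (adjusted p = 0.0665).

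*Eif2ak4*, the gene for the kinase GCN2, was the member with the lowest level, between 6.55 and 8.92 CPM in sham and between 6.44 and 7.59 CPM in TAC. Its averaged log2 fold change was -0.12 (95% interval -0.25 to 0.02, adjusted p = 0.160), with a sign that turned under library totals (0.02, adjusted p = 0.813). With the animal numbers that begin with 33 as a term it was -0.21 (adjusted p = 0.0388). In KO, all 4 TAC libraries were below all 4 sham libraries, as for 16.6% of the genes tested, but the test gave -0.14 with an adjusted p of 0.240 (-0.17 and 0.215 without KO TAC 4).

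In counts, 4 of the 8 members were called higher after TAC averaged over genotypes and 0 were called lower, where 21.3% of the 18275 genes were called higher, 20.2% lower and 41.5% in either direction. In Ctrl, 1 member was called higher and 0 lower, against 10.4% and 9.6% of all genes (20.0% in all). In KO, 2 were called higher and 0 lower, against 17.8% and 16.5% of all genes (34.3% in all). The sham and TAC libraries did not overlap for 1 member in Ctrl (higher, as for 10.5% of all genes, with 9.97% lower), for 5 in KO (4 higher and 1 lower, against 18.0% and 16.6%) and for 1 over both genotypes (higher, with 6.12% higher and 5.42% lower among all genes). Whether those shares set the members apart from the background of this surgery was not tested. The median log2 fold change of the 8 members was 0.09 averaged over genotypes, against 0.00 over all genes tested. Among marker genes of cell types, all 5 fibroblast markers and all 4 macrophage markers were called higher after TAC. Of 6 cardiomyocyte markers, 5 were called lower and 1 higher. Of 4 endothelial and 3 mural markers, 1 each was called higher and 0 lower. The 1 atrial cardiomyocyte marker tested was called higher, and 0 of 4 red blood cell markers were called. The fibroblast markers summed to 446 to 506 CPM in Ctrl sham, 461 to 487 in KO sham, 643 to 912 in Ctrl TAC and 934 to 1079 in KO TAC. The macrophage markers summed to 61.2 to 83.7, 56.3 to 71.0, 84.0 to 95.4 and 89.0 to 109.6 CPM in the same order, and the cardiomyocyte markers to 39839 to 47029, 39822 to 45344, 33394 to 37026 and 28111 to 29558 CPM. None of these markers was at 0 in every library, and their part in the members' changes was not tested. In RNA from a whole tissue, fewer cells of a type and less RNA per cell cannot be told apart.

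**Figure D2:**
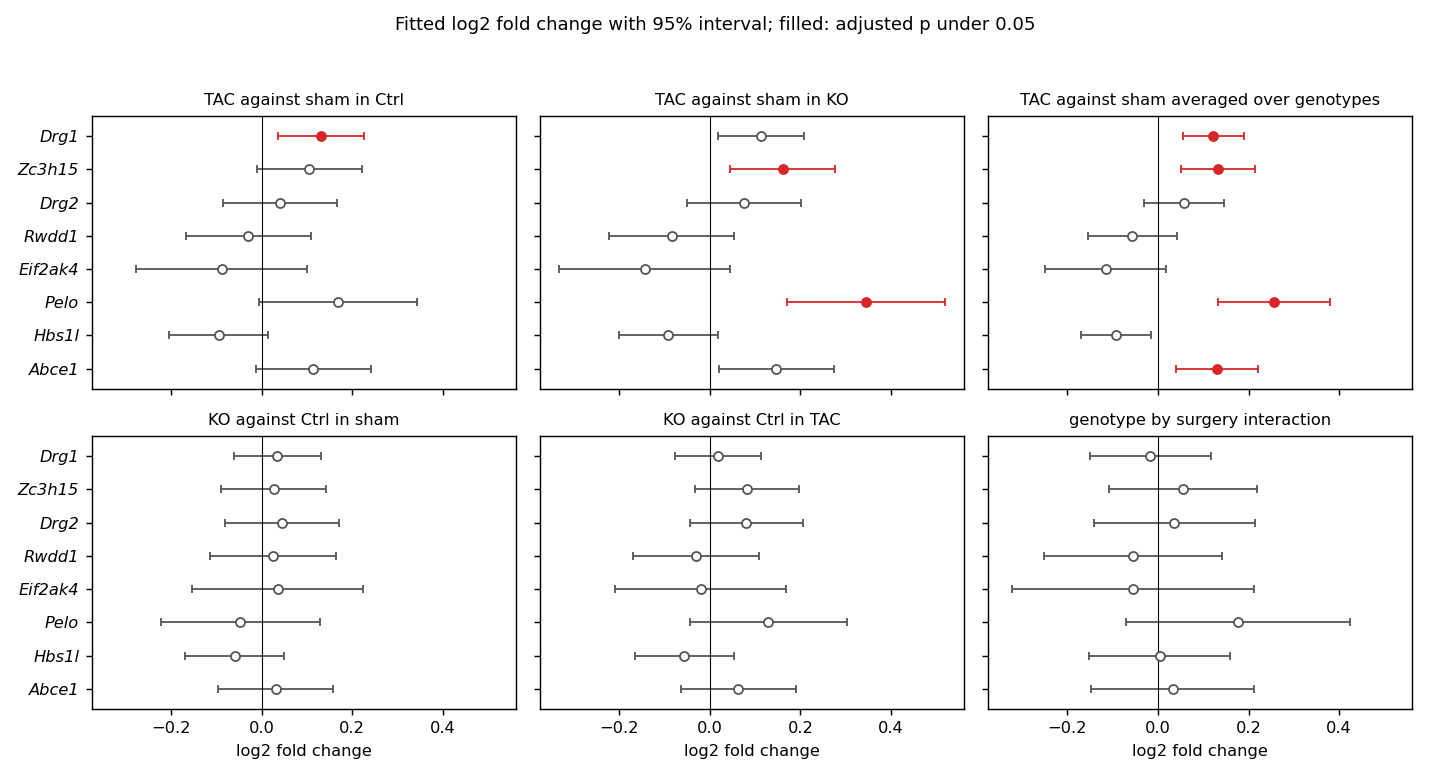
Log2 fold change (horizontal axis) of each member in the 6 comparisons, with 95% intervals, filled where the adjusted p was under 0.05. The filled points are *Drg1* in Ctrl, *Zc3h15* and *Pelo* in KO, and *Drg1*, *Zc3h15*, *Pelo* and *Abce1* averaged over genotypes, and no point is filled in the genotype panels.

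The loss of *Cardinal* was not accompanied by a detectable difference in any member's RNA. In sham hearts, the KO against Ctrl log2 fold changes of the members ran from -0.06 (*Hbs1l*) to 0.04 (*Drg2*), each with an adjusted p of 1.00, and 0.0% of all genes were called. That includes the deleted gene. *Cardinal* had -2.92 (95% interval -4.70 to -1.14), with libraries that did not overlap, but its adjusted p was 0.9998 in the edgeR quasi-likelihood test. The lack of a call in this comparison therefore does not show that a gene was unchanged. The 95% interval for *Drg1* was -0.06 to 0.13 and for *Zc3h15* -0.09 to 0.14. Across the 8 members, the intervals reached from -0.22 to 0.22. By unadjusted p, 0 of the 8 members were under 0.05 in this comparison, where 479 of the 18275 genes were. DESeq2 called 0 members, but it called only 3 of the 18275 genes. The libraries of both genotypes overlapped for all 8 members in sham, where 0.941% of all genes were separate and higher in KO and 0.837% separate and lower.

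After TAC, where 2.68% of all genes were called between the genotypes (1.36% higher in KO and 1.32% lower), 0 of the 8 members were. That share, 489 of 18275 genes, was not stable. It fell to 12 genes with a term for the animal-number set of Ctrl TAC 2, 3 and 4 and KO TAC 4, uneven between genotypes. In fits without 1 library, it ran from 63 genes (without Ctrl TAC 2) to 733 (without Ctrl TAC 4). The members called stayed at 0 in all of these. The libraries of both genotypes overlapped for all 8 members, where 5.55% of all genes were separate and higher in KO and 4.99% separate and lower. *Drg1* had a mean of 35.2 ± 0.812 CPM in Ctrl TAC and 35.7 ± 1.49 CPM in KO TAC (SD, n = 4 each), and its interval of -0.08 to 0.11 limits a difference to between -5.16% and 8.15%. *Zc3h15* had 50.3 ± 2.82 and 53.2 ± 2.19 CPM, with an interval of -0.03 to 0.20 on the log2 scale. *Pelo* had the largest estimate, 0.13 (95% interval -0.04 to 0.30, adjusted p = 0.432), and without KO TAC 4 it was 0.17 (adjusted p = 0.338). Leaving out KO TAC 4 called no member, where 438 of 18494 genes were called. None of the 8 members had an unadjusted p under 0.05, where 3380 of the 18275 genes did. DESeq2 called none of the 8 members and 1183 of all genes. In the interaction of genotype and surgery, where 0.0109% of all genes were called, the members ran from -0.06 (*Eif2ak4*) to 0.18 (*Pelo*) with adjusted p between 0.612 and 0.992. None of the 8 was under an unadjusted p of 0.05, where 2024 of the 18275 genes were. DESeq2 called none of the 8 in the interaction and 132 of all genes. Without KO TAC 4 the *Pelo* interaction was 0.21 (adjusted p = 0.533), and no member was called, where 1 of 18494 genes was.

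Because partners are read from the same library, the ratio of their counts does not depend on scaling. It was compared for 5 pairs over 5 comparisons (25 exact permutation tests, two-sided). The animal numbers, which run with surgery, were not taken into account in these tests. With 4 libraries a group, 70 relabellings give a smallest p of 0.0286, which came to an adjusted p of 0.143 here, whereas the averaged TAC effect has 4900 relabellings within genotypes and a smallest p of 0.000408. Across sham and TAC, *Drg1* and *Zc3h15* stayed in nearly the same proportion, with 0.692 ± 0.0447 *Drg1* counts per *Zc3h15* count in sham and 0.687 ± 0.0407 in TAC (SD, n = 8 each). The difference was -0.01 on the log2 scale (exact permutation p = 0.821, adjusted p = 0.943).

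The ratio of *Pelo* to *Hbs1l* differed between sham and TAC. It was 0.153, 0.184, 0.150 and 0.157 in Ctrl sham and 0.146, 0.158, 0.177 and 0.168 in KO sham. It was 0.184, 0.189, 0.188 and 0.211 in Ctrl TAC and 0.201, 0.236, 0.243 and 0.199 in KO TAC. All 8 TAC libraries were above all 8 sham libraries, though Ctrl sham 2 and Ctrl TAC 1 lay within counting error of each other. The averaged log2 difference was 0.35, or 1.28-fold (exact permutation p = 0.000408, the smallest these relabellings can give, adjusted p = 0.0102). In Ctrl it was 0.26 and in KO 0.44, each with the smallest exact p for 4 against 4 libraries (0.0286, adjusted p = 0.143). The KO against Ctrl difference after TAC was 0.18 (exact permutation p = 0.0857, adjusted p = 0.238). Without KO TAC 4, the averaged difference was 0.37 (adjusted p = 0.0102) and that in KO 0.48 (adjusted p = 0.143).

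The ratio of the partner genes *Zc3h15* and *Rwdd1* also moved. It was 1.01, 0.945, 0.924 and 0.966 in Ctrl sham and 0.967, 0.990, 0.906 and 0.987 in KO sham. It was 1.04, 1.11, 0.993 and 1.08 in Ctrl TAC and 1.15, 1.08, 1.21 and 1.13 in KO TAC. Only Ctrl TAC 3 lay below the highest sham library. The averaged log2 difference was 0.19 (exact permutation p = 0.000816, adjusted p = 0.0102), and it was also 0.19 without KO TAC 4 (adjusted p = 0.0102). For *Drg1* against *Drg2* it was 0.06 (exact permutation p = 0.213, adjusted p = 0.444), and for *Drg2* against *Rwdd1* 0.12 (exact permutation p = 0.0747, adjusted p = 0.238), neither past the threshold.

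**Figure D3:**
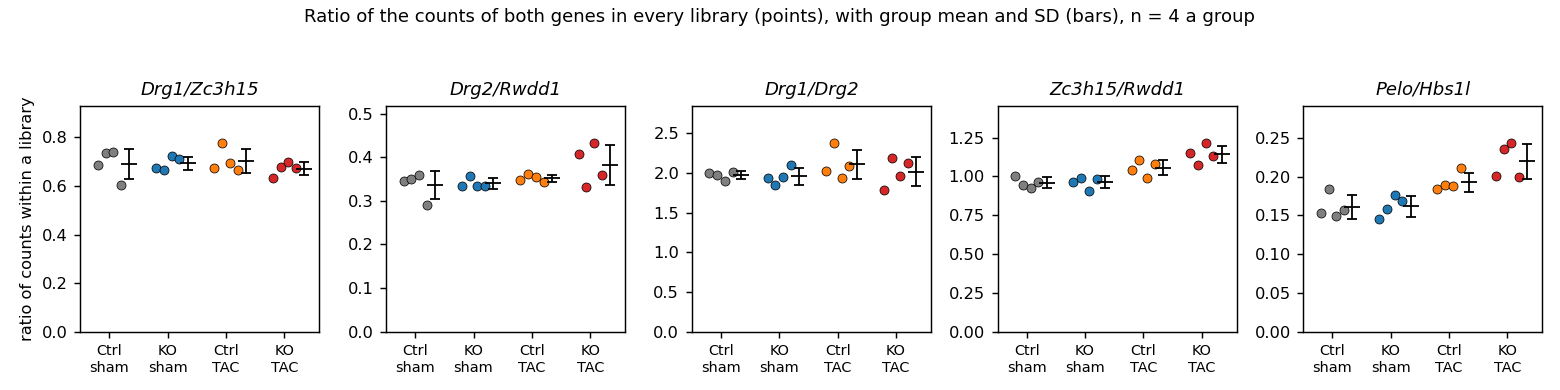
Ratio of the counts of both genes of a pair (vertical axes, from 0, no unit) in the 4 libraries of each group, with the group mean and SD. The *Pelo*/*Hbs1l* ratio runs from 0.146 to 0.184 in the 8 sham libraries and from 0.184 to 0.243 in the 8 TAC libraries, and the *Drg1*/*Zc3h15* ratio overlaps between all groups.

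Within groups, the correlation of partner levels passed no test. After subtracting group means over the 16 libraries, Pearson's r was -0.12 for *Drg1* with *Zc3h15* (Spearman's rho -0.09, permutation p = 0.689 and 0.761). It was 0.11 for *Drg2* with *Rwdd1* (rho 0.06, permutation p = 0.725 and 0.847) and 0.14 for *Pelo* with *Hbs1l* (rho -0.05, permutation p = 0.642 and 0.857). Over these 3 relations the adjusted p was 0.725 for r and 0.857 for rho. Without the 2 libraries farthest from the median, r was -0.03, -0.08 and 0.24. With library totals in place of TMM factors, r for *Pelo* with *Hbs1l* was 0.47 (adjusted permutation p = 0.381), and without KO TAC 4 the 3 values were -0.14, 0.14 and 0.18.

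The promoter windows of *Pelo*, *Zc3h15* and *Abce1* are shown because these genes rose after TAC. RefSeq windows on GRCm38.p6, 250 bases before to 50 after the start, were at hand for 6 of the 8 members. They were searched on both strands for 6 motifs, none of which contains another. These were TATAAA, the core of the TATA box, and the CCAAT box, bound by NF-Y. The box that Sp and KLF factors bind was searched as GGGCGG, and the cAMP response element as TGACGTCA. For ETS factors the letters were CCGGAAG, and for the composite element of C/EBP and ATF factors they were TGATGNAA. Capitals mark the matches.
Pelo, chr13:115090109-115090408, minus strand: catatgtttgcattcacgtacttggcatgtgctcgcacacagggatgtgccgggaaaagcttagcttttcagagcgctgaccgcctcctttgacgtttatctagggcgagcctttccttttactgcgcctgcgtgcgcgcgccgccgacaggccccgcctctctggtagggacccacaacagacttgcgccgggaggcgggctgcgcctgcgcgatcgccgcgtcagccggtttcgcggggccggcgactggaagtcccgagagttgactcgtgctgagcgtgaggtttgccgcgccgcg
Zc3h15, chr2:83644328-83644627, plus strand: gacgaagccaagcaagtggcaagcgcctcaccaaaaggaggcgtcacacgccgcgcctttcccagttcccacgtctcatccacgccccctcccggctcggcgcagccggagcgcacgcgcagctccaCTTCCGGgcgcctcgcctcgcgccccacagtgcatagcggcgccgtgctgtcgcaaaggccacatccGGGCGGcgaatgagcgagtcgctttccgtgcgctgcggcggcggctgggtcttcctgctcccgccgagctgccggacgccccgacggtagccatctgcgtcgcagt
Abce1, chr8:79711691-79711990, minus strand: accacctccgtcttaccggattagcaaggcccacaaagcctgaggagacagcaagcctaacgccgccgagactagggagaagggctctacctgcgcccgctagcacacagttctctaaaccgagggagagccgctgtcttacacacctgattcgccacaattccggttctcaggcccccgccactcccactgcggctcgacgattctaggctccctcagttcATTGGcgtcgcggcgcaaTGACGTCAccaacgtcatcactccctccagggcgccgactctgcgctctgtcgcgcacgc
The *Zc3h15* window held the ETS letters at position -123 and the Sp/KLF letters at -56, which 8.86% and 35.7% of all 32851 windows held. The *Abce1* window held the CCAAT letters, on the minus strand, at -28 and the cAMP response element at -10, which 37.4% and 1.79% of all windows held. The *Pelo* window held none of the 6. No motif was present in all 3 windows. TATA letters occurred in 13.6% of all windows and the C/EBP-ATF letters in 3.97%, and none of these 3 windows held either. The windows were GC-rich, at 64.0% for *Pelo*, 70.7% for *Zc3h15* and 61.7% for *Abce1*, against a median of 52.7%.

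Around the members, 6 lists of other genes of the same pathways held 73 genes, of which 72 were tested. Averaged over genotypes, 18 were called higher and 11 lower after TAC (40.3% of the 72, against 41.5% of all genes), or 18 and 10 without KO TAC 4, and the list medians lay between -0.02 and 0.15 on the log2 scale. In the list of OBG-family GTPases, to which the DRG proteins are related, 1 of 5 was called higher and 2 lower: *Gtpbp4*, which acts in assembly of the large ribosomal subunit, had 0.26 (adjusted p = 1.13e-05), and *Mtg2* and *Gtpbp10*, both of the mitochondrial ribosome, had -0.39 (adjusted p = 5.03e-06) and -0.15 (adjusted p = 0.0362). Of 14 genes for sensing and splitting collided ribosomes, 4 were called higher and 5 lower. *Eif4e2*, a cap-binding repressor, rose by 0.14 (adjusted p = 0.00244) and *Ascc2*, of the complex that splits collided ribosomes, by 0.13 (adjusted p = 0.0383). *N4bp2*, a nuclease-domain gene, had -0.38 (adjusted p = 0.000117) and *Map3k20*, the kinase ZAK that signals from collided ribosomes, -0.32 (adjusted p = 1.65e-05), from 147 ± 4.82 CPM in Ctrl sham to 123 ± 7.33 in Ctrl TAC and 114 ± 11.9 in KO TAC (SD, n = 4).

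Among 10 genes for the quality control of nascent chains, 4 were called higher and 0 lower (21.3% and 20.2% of all genes), with *Nploc4*, a p97 cofactor, at 0.16 (adjusted p = 0.00566). Of 13 tested genes of the SKI complex and exosome, which degrade the message of a stalled ribosome, 1 was called, *Exosc10* at -0.13 (adjusted p = 0.0218). Of 16 genes for termination and recycling, 3 were called higher and 2 lower, or 3 and 1 without KO TAC 4. The release factors *Etf1* (0.16, adjusted p = 0.00167) and *Gspt1* (0.14, adjusted p = 0.00369), the paralogues of *Pelo* and *Hbs1l* in normal termination, were both among the higher ones, and *Dohh* (-0.13, adjusted p = 0.0276), which makes the hypusine of eIF5A, and the ABC protein gene *Abcf2* (-0.09, adjusted p = 0.0390) were the lower ones.

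Of 14 genes of the GCN2 pathway and the other eIF2 kinases, 6 were called higher and 1 lower, or 50% against 41.5% of all genes. *Ppp1r15a*, whose protein directs the phosphatase of eIF2α, had 0.46 (adjusted p = 0.000102), and *Eif2ak2*, the kinase PKR, had 0.42 (adjusted p = 6.06e-06). *Chac1*, a target of ATF4, had -0.46 (adjusted p = 0.00648). None of the 72 genes was called between KO and Ctrl in sham or after TAC, or in the interaction. Of all genes, 0.0%, 2.68% and 0.0109% were called there. The 2.68% moved with the libraries and terms used, as given above.

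**Figure D4:**
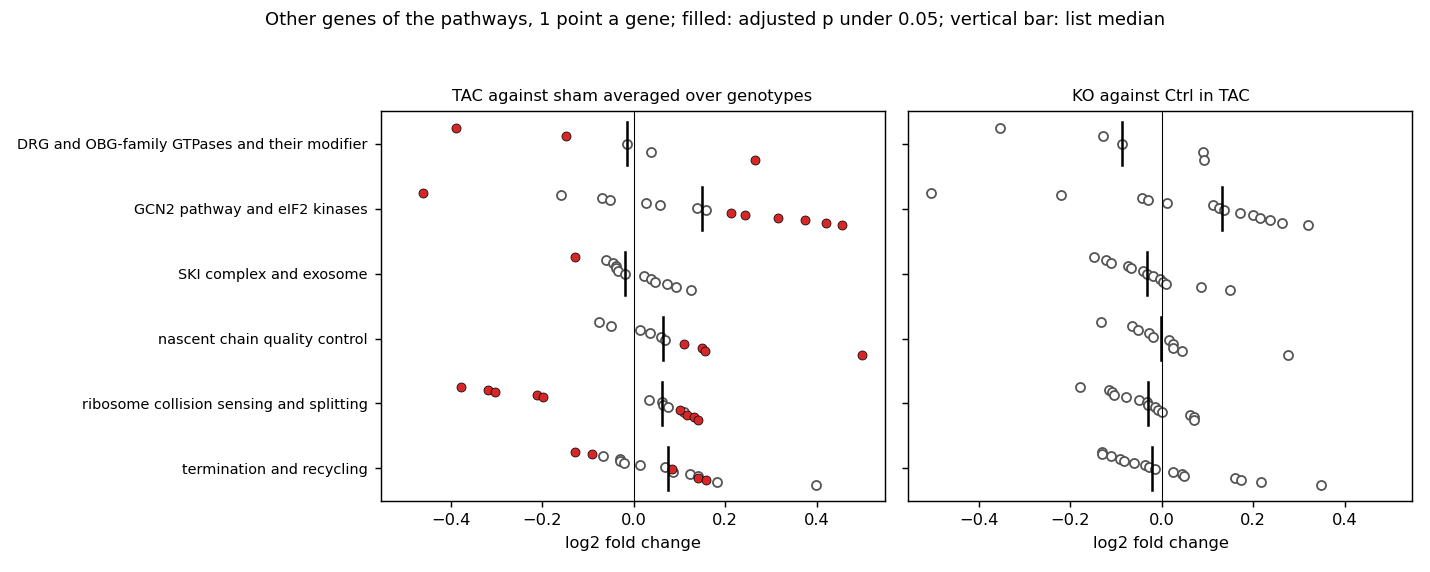
Log2 fold change (horizontal axis) of each of the 72 tested genes in the 6 lists, averaged over genotypes (left) and between KO and Ctrl after TAC (right), filled where the adjusted p was under 0.05, with a vertical bar at each list median. On the left, 18 filled points lie to the right of 0 and 11 to the left, and on the right no point is filled.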

How the data were processed

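Apex tissue of 16 mouse hearts was sequenced as poly(A)-selected, paired 150-base libraries. Per the submitters' processing notes, reads were trimmed with cutadapt 2.3, checked with FastQC and aligned with HISAT2 2.1.0 to GRCm38, and edgeR 3.26.1 was used; the counting program, the annotation and the use of strand were not given in the sources used here. The authors deposited raw counts per gene, and no per-sample column was left out. Of the 55487 identifiers, 99.5% matched GENCODE M21, which gave symbols, positions and exon lengths.

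From the counts, a quasi-likelihood model (edgeR 4.0.16, R 4.3.3; filterByExpr, TMM, robust) with 4 group means over all 16 libraries was fitted to 18275 genes, and p-values were adjusted by Benjamini-Hochberg over all of them, with calls at 0.05. CPM values use TMM-scaled totals. The fit and the likeness ranking were tested on simulated data. Partner ratios were compared by exact permutation, and covariation by 100000 permutations within groups. Alternatives were other scalings and filters, DESeq2 1.42.0, terms for animal numbers, and leaving out libraries. The labels name separate animals but no litter or batch.

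The members and gene lists were chosen with earlier results of these data known. The genes named from each list were those called after TAC with the largest rises and falls, up to 2 each, and for likeness the 3 genes with the highest correlation with *Drg1* or *Zc3h15*. The values of 1 gene that this rule names are not reported here.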

Additional observations from a re-analysis of the deposited data

Results flagged for a closer look

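In the groups of 4 libraries tested for an outlying library (56 groups, of which chance flags about 1 in 20), 6 held a library that stood apart from the other 3. *Drg2* was at 16.1 CPM in KO sham 4, against 17.0 to 17.1 CPM in the others. *Rwdd1* was at 42.1 CPM in Ctrl TAC 2, against 48.8 to 50.05 CPM, and without that library and KO TAC 4 its TAC against sham value in Ctrl turned from -0.03 to 0.03. *Cardinal* (Gm12295) was at 8.02 CPM in Ctrl TAC 1, against 2.69 to 3.37 CPM, and at 4.55 CPM in the library labelled KO TAC 4, against 0.276 to 0.371 CPM. The *Drg2*/*Rwdd1* ratio was 0.357 in KO sham 2, against 0.333 to 0.335. The *Pelo*/*Hbs1l* ratio was 0.211 in Ctrl TAC 4, against 0.184 to 0.189.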

How the results depend on the processing

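No paired analysis was possible because each animal number stands on a single library. Counts of members called after TAC moved most. In Ctrl (1 as reported) it was 0 at an adjusted p under 0.01, with RLE size factors, without mitochondrial genes, with a filter of 1 count, with either animal-number term, from the compared groups alone, and without Ctrl TAC 2 and KO TAC 4 together, and 4 with library totals, and 0 to 1 without 1 library. In KO (2) it was 1 at an adjusted p under 0.01, 5 with library totals and 1 without those 2 libraries together, and 1 to 3 without 1 library. Averaged (4), it was 2 at an adjusted p under 0.01 and 4 to 5 without 1 library. The number of all 18275 genes called moved as well. With library totals it was 4335 in Ctrl (3652 as reported) and 7390 in KO (6271 as reported). At an adjusted p under 0.01 it was 2076 in Ctrl, 4222 in KO and 5387 averaged (7577 as reported). With RLE size factors, where no member was called in Ctrl, it was 3644 there, close to the reported number. Library totals moved the median of all genes by 0.13, with 78.7% of averaged calls higher against 51.3% with TMM factors.

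No called value changed sign. Signs turned in 25 uncalled cases, none of them called in the alternative either. With library totals these were *Rwdd1* 0.075, *Eif2ak4* 0.022 and *Hbs1l* 0.011 in Ctrl, 0.078, 0.018 and 0.070 in KO, and 0.076, 0.020 and 0.041 averaged, with *Rwdd1* 0.011 and *Eif2ak4* 0.019 for KO against Ctrl after TAC, *Drg1* 0.038 and *Rwdd1* 0.0026 for the interaction, and 0.049 for the *Drg1* with *Zc3h15* correlation. With the term for numbers starting with 25, *Eif2ak4* had 0.059 for KO against Ctrl after TAC and, for the interaction, *Drg2* -0.0015, *Eif2ak4* 0.024 and *Hbs1l* -0.034. With that for 33, *Zc3h15* and *Rwdd1* had -0.010 and -0.022 in sham and *Abce1* -0.0039 for the interaction. Without Ctrl TAC 2 and KO TAC 4, *Rwdd1* had 0.026 in Ctrl, *Abce1* -0.0063 for KO against Ctrl after TAC, and *Hbs1l* and *Abce1* -0.022 and -0.037 for the interaction.

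Without 1 library, signs turned in 49 cases over 23 uncalled results, given here as lowest to highest value. After TAC in Ctrl, values ran from -0.053 to 0.026 for *Rwdd1* and -0.038 to 0.059 for *Drg1*/*Zc3h15*. Between genotypes in sham, values ran from -0.0085 to 0.067 for *Zc3h15*, -0.030 to 0.12 for *Eif2ak4*, -0.0033 to 0.080 for *Abce1*, -0.056 to 0.041 for *Drg1*/*Zc3h15*, -0.050 to 0.054 for *Drg2*/*Rwdd1*, -0.031 to 0.078 for *Pelo*/*Hbs1l*, -0.044 to 0.019 for *Drg1*/*Drg2* and -0.015 to 0.032 for *Zc3h15*/*Rwdd1*. Between genotypes after TAC, values ran from -0.0049 to 0.040 for *Drg1*, -0.085 to 0.025 for *Rwdd1* and -0.068 to 0.021 for *Eif2ak4*. For the interaction, values ran from -0.040 to 0.0058 for *Drg1*, -0.0064 to 0.069 for *Drg2*, -0.11 to 0.00031 for *Rwdd1*, -0.14 to 0.010 for *Eif2ak4*, -0.034 to 0.052 for *Hbs1l* and -0.019 to 0.067 for *Abce1*. Averaged over genotypes, values ran from -0.042 to 0.0062 for *Drg1*/*Zc3h15*. After TAC in KO, values ran from -0.0036 to 0.095 for *Drg1*/*Drg2*. For correlations within groups, values ran from -0.28 to 0.18 for *Drg1* with *Zc3h15* and -0.40 to 0.35 for *Drg2* with *Rwdd1*. The causes were not tested.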

Other observations

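The genes whose levels ran most like *Drg1* over the 16 libraries, among the 10590 genes whose mean log2 CPM reached 2, were *Limk2* (Pearson's r = 0.91), a kinase of actin remodelling, *Cenpc1* (0.90), which encodes a kinetochore protein, and *Tdg* (0.89), a DNA glycosylase. For *Zc3h15* they were *Tmem192* (0.90), a lysosomal membrane protein, *Vps29* (0.89), a retromer subunit, and *Selenof* (0.89), a selenoprotein of the endoplasmic reticulum. All 6 were called higher after TAC, and all points share the same libraries, sham and TAC together. *Drg1* and *Zc3h15* themselves had r = 0.55, which placed *Zc3h15* at rank 1876 in the list for *Drg1* and *Drg1* at rank 1962 in the list for *Zc3h15*.

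*Limk2*, first of 10590 genes in the list for *Drg1*, lies on the same chromosome 77841 bases away and on the same strand (chr11:3344256-3409189 in GRCm38), which was noticed after its value was seen. It went from 21.1 ± 1.09 CPM in sham to 25.4 ± 0.712 CPM in TAC (SD over 8 libraries each), or 0.27 on the log2 scale (adjusted p = 1.71e-05, edgeR quasi-likelihood test). Of the 11 other genes tested within 200000 bases of *Drg1*, 1 was called higher after TAC, *Limk2*, and 2 lower, *Patz1* (-0.22, adjusted p = 0.0160) and *Pik3ip1* (-0.34, adjusted p = 0.00822), which lie between *Drg1* and *Limk2*. *Sfi1* and *Eif4enif1*, whose spans overlap that of *Drg1*, had 0.00 (adjusted p = 0.983) and -0.05 (adjusted p = 0.421).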
